A study of Mus musculus with 11 samples.

Results

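Ttn, Ddo, Ccr9, Tead1 and Rxrg are 5 of the 31053 genes counted in single nuclei of mouse cortex. They were chosen by measured values of these data, namely for having the largest rises in microglia of mice with a constitutively active IKKβ, so their levels in those microglia are described here without a test. The questions that could be tested were whether Rxrg differed between the other genotypes, whether the 5 genes moved in other cell types of the same brains, and in which cell types they are normally found.

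IKKβ, encoded by Ikbkb, is the kinase that releases NF-κB to the nucleus by marking its inhibitor IκB for degradation. In microglia, the resident macrophages of the brain, NF-κB drives inflammatory genes. None of the 5 genes is best known from microglia. Ttn encodes titin, the giant spring protein of the muscle sarcomere. Ddo encodes D-aspartate oxidase, a peroxisomal enzyme that breaks down D-aspartate. Ccr9 encodes the receptor for the chemokine CCL25, known for guiding T cells to thymus and gut. Tead1 encodes the DNA-binding partner of YAP and TAZ at the end of the Hippo pathway. Rxrg encodes retinoid X receptor γ, a nuclear receptor that pairs with other nuclear receptors and is known from the striatum.

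Nuclei of 11 mice, all female by their labels although the study's methods name male mice for RNA-seq, were profiled, with 1 library for each mouse. Non-transgenic mice were Ikbkb+/+ (n = 4, 9.8 to 10.85 months). P301S mice were Ikbkb+/+;P301S+ and carried PS19, a transgene for mutant human tau (n = 3, 9.15 to 10.75 months). Knockout P301S mice were Ikbkb-/-;P301S+, with floxed Ikbkb deleted by a tamoxifen-induced Cre under Cx3cr1 (n = 2, 8.39 and 9.15 months). Active IKKβ P301S mice were IkbkbCA;P301S+, with a stop cassette before an active kinase in the Rosa locus removed by the same Cre (n = 2, 9.8 and 10.85 months). According to the study's methods mice received tamoxifen as young adults. By its breeding scheme Ikbkb+/+ mice are taken to be littermates that carried the floxed or stop-cassette allele without the Cre, which the labels do not spell out. Controls came from the floxed line or from the active IKKβ line, and both active IKKβ mice came from the latter. The Cre replaces 1 copy of Cx3cr1 and also acts in macrophages at the borders of the brain. Cre and active kinase cannot be told apart by comparing the active IKKβ mice with controls. Knockout mice carry the same Cre, with Ikbkb deleted, and their levels of the chosen genes are given below.

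Libraries held 7500 to 12315 barcodes and 72007219 to 93205362 UMIs, the molecular tags that stand for captured RNA molecules. After filters 103065 nuclei were used, of which 4492 fell in a microglia-like cluster in which 15 of 15 microglia markers were raised. Each mouse gave 194 to 736 microglia-like nuclei whose median depth was 1443 to 2473 UMIs, and the active IKKβ mice, at 2320 and 2473, were at the deep end. Of these nuclei 6 shared a barcode sequence with a microglia-like nucleus of another library. Ikbkb itself was at 110 to 116 CPM (counts per 1000000 UMIs, here of the microglia-like nuclei of a mouse) in knockout mice, 134 to 148 in P301S mice, 124 to 155 in non-transgenic mice and 150 to 167 in active IKKβ mice. These counts cover the whole gene, so they do not check the deleted exons or the Rosa insert.

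The 5 genes lie on different chromosomes of GRCm38, the build called mm10. Ttn (ENSMUSG00000051747) spans chromosome 2, 76703980 to 76982547, on the minus strand. Ddo (ENSMUSG00000063428) spans chromosome 10, 40630011 to 40681847, Ccr9 (ENSMUSG00000029530) chromosome 9, 123678439 to 123784330, Tead1 (ENSMUSG00000055320) chromosome 7, 112679318 to 112906807, and Rxrg (ENSMUSG00000015843) chromosome 1, 167598384 to 167639623, all on the plus strand. All are protein-coding in GENCODE M21, and unspliced transcripts were counted along with spliced ones. The Ccr9 model of 105892 bases runs across Slc6a20a, a transporter gene, and Lztfl1, both on the other strand, and overlaps predicted genes on either strand. Whether reads were counted by strand is not given in the sources used here, so reads of Ccr9 and its antisense partners are not surely told apart. Ddo and Rxrg overlap no other annotated gene. Ccr9 starts 3608560 bases beyond the end of Cx3cr1, the gene into which the Cre was inserted.

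Promoters are shown because these genes were high together where the NF-κB kinase was active. RefSeq promoters (250 bases before to 50 after the start, GRCm38.p6) were at hand for 4 of the 5 genes. They were searched on both strands for the κB motif by name, for the TEAD motif GGAATG and for the nuclear receptor half-site AGGTCA, none of which overlapped in these windows. Capitals mark matches.
Ttn, chr2:76982498-76982797, minus strand: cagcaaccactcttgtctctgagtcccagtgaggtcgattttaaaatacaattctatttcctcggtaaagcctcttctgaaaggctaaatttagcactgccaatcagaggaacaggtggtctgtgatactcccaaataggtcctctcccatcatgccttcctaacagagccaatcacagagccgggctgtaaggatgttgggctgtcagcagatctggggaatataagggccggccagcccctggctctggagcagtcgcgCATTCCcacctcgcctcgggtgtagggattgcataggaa
Ddo, chr10:40629761-40630060, plus strand: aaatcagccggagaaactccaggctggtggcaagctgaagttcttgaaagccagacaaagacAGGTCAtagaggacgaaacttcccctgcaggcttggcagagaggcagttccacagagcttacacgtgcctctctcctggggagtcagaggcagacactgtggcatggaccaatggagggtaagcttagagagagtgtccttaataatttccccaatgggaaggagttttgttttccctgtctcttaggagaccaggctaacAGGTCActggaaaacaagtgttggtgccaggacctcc
Ccr9, chr9:123766961-123767260, plus strand: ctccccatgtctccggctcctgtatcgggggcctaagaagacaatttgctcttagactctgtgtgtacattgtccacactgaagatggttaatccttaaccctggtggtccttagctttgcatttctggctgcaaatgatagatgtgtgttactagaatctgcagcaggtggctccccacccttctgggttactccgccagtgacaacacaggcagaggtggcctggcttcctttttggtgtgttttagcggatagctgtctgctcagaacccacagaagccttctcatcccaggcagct
Rxrg, chr1:167618015-167618314, plus strand: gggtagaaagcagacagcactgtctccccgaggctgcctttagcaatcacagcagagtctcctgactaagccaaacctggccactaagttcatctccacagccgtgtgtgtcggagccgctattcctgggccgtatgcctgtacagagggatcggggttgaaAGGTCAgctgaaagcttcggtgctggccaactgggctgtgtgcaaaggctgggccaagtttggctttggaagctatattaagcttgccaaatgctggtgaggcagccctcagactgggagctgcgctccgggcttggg
No κB match was found in these windows or in that of an upstream Rxrg start, and 4.51% of all 32851 mouse promoters of the same length hold one. The Ccr9 window lies inside the GENCODE model of the gene, and the start of that model, at 123678439, was not searched. The Ttn promoter held 1 TEAD motif on its reverse strand, from base 12 after the start, as 14.7% of all promoters hold at least 1. The Ddo promoter held the half-site at -188 and 14, and the Rxrg promoter at -88, while 16.3% of all promoters hold at least 1. The letters say nothing about binding.

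In active IKKβ microglia all 5 genes stood far above every other mouse. Levels here are CPM on sums of microglia-like nuclei, scaled with TMM factors. Ttn was at 153 and 316 CPM in the active IKKβ mice (250 and 464 UMIs). In non-transgenic mice it was at 5.32, 1.87, 0 and 0 CPM, in P301S mice at 0, 3.38 and 1.33 CPM, and in both knockout mice at 0. The active IKKβ mice were further apart in Ttn and Ccr9 than in the other 3 genes.

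Ddo was at 148 and 182 CPM in active IKKβ mice. It was at 5.32, 3.75, 2.13 and 7.31 CPM in non-transgenic, 0, 1.69 and 3.33 CPM in P301S and 6.73 and 2.10 CPM in knockout mice. Outside the active IKKβ mice no library held more than 8 Ddo UMIs. Ccr9 was at 46.0 and 92.7 CPM in active IKKβ mice and at 0 to 6.40 CPM in the other 9, with 0 UMIs in both knockout mice.

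The transcription factors had a measurable floor in the other mice. Tead1 was at 112 and 146 CPM in active IKKβ mice. It was at 7.97, 9.37, 14.9 and 20.5 CPM in non-transgenic, 2.72, 10.1 and 10.7 CPM in P301S and 10.9 and 14.7 CPM in knockout mice. Rxrg was at 223 and 232 CPM in active IKKβ mice, the closest pair of values among the 5 genes. It was at 2.66, 3.75, 10.7 and 11.7 CPM in non-transgenic, 21.7, 6.75 and 33.3 CPM in P301S and 10.9 and 4.205 CPM in knockout mice. The highest mouse without active IKKβ was P301S replicate 3, and its Rxrg level was far below both active IKKβ mice. Knockout mice, which carry the same Cre, averaged 0 CPM for Ttn and Ccr9, 4.42 for Ddo, 12.8 for Tead1 and 7.57 for Rxrg. Active IKKβ mice averaged 235 CPM for Ttn, 69.4 for Ccr9, 165 for Ddo, 129 for Tead1 and 228 for Rxrg. Knockout mice also have Ikbkb deleted, so the part of the Cre alone was not tested.

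**Figure D1:**
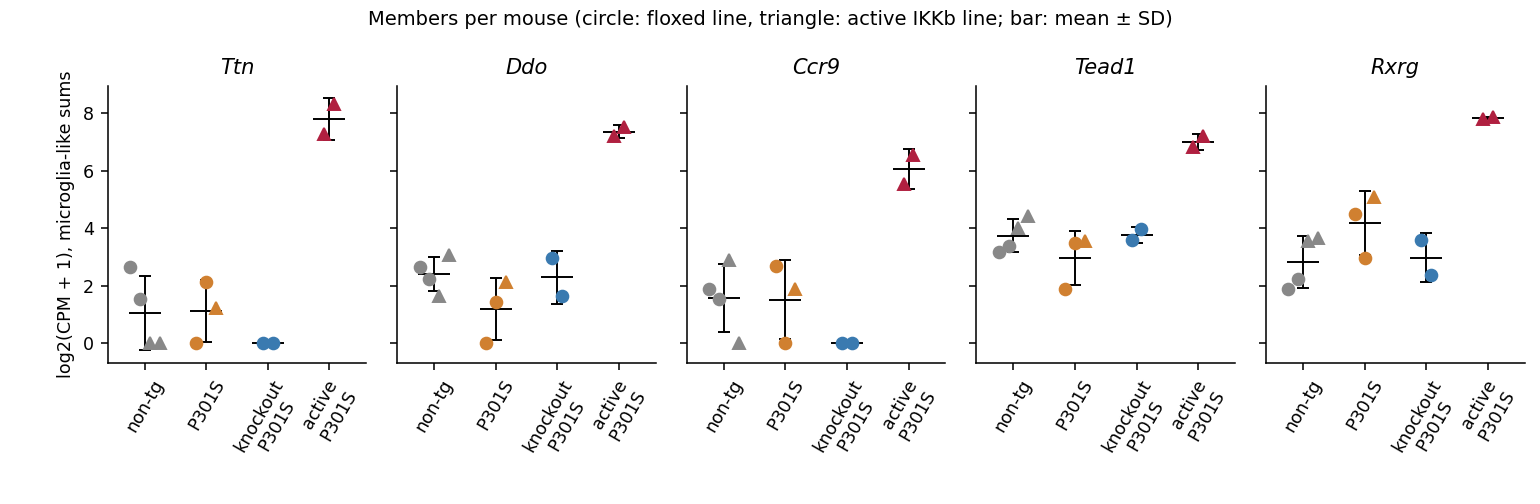
Each panel plots one gene as log2(CPM + 1) in microglia-like sums, with 1 point per mouse (circles for the floxed line, triangles for the active IKKβ line) and the mean ± SD of each genotype. In every panel the 2 active IKKβ P301S mice sit above the 9 others, and Ttn and Ccr9 are at 0 in both knockout mice.

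Against P301S mice the fitted log2 fold changes were 7.04 ± 0.48 (SE) for Ttn, 6.01 ± 0.35 for Ddo, 4.74 ± 0.54 for Ccr9, 3.79 ± 0.30 for Tead1 and 3.25 ± 0.29 for Rxrg (3 and 2 mice). They ranked 1, 2, 3, 4 and 6 by rise among 8946 genes measured, of which 135 (1.51%) were called in either direction, and this contrast is the one that chose them. Just outside was Msh5, a meiotic recombination gene, at 3.42 ± 0.64, which lies above Rxrg. It varied between control mice, at 27.3 ± 40.3 CPM in non-transgenic mice (SD, n = 4). Tk1, thymidine kinase, followed at 3.04 ± 0.49 and Aoah, an enzyme that inactivates lipopolysaccharide, at 2.96 ± 0.32. Set against non-transgenic mice, the 5 ranked 1 (Ttn), 2 (Ddo), 4 (Ccr9), 17 (Tead1) and 3 (Rxrg). The next genes in that order after the first 4 were Ikbke (4.57 ± 0.72), an NF-κB-linked kinase, Gpc4 (3.74 ± 0.52), a cell surface proteoglycan, and Itgax (3.69 ± 0.71), an integrin. Ttn, Ddo and Ccr9 had at most 8 UMIs and Tead1 at most 16 in any mouse without active IKKβ, and these 4 genes passed the count filter through the active IKKβ mice. Only Rxrg passed it in the other 9 mice alone. Without P301S replicate 3 the log2 fold change of Ddo was 7.10 and that of Rxrg 4.15, and without active IKKβ replicate 2 that of Ttn was 6.44.

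A minority of active IKKβ microglia carried each gene at this depth. Ttn was seen in 15.3% of 692 nuclei of replicate 1 (exact 95% interval 12.7 to 18.2) and 27.3% of 593 nuclei of replicate 2 (23.8 to 31.1). Ddo was seen in 24.4% (21.3 to 27.8) and 27.3% (23.8 to 31.1), and Ccr9 in 7.66% (5.79 to 9.90) and 15.3% (12.5 to 18.5). Tead1 was seen in 17.6% (14.9 to 20.7) and 21.8% (18.5 to 25.3), and Rxrg in 36.4% (32.8 to 40.1) and 39.5% (35.5 to 43.5). The intervals cover counting error only, and those of the replicates did not overlap for Ttn and Ccr9.

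In the 9 other mice the shares reached at most 0.870% for Ttn, 1.52% for Ddo, 1.11% for Ccr9, 3.96% for Tead1 and 5.57% for Rxrg. No Ttn or Ccr9 UMI was found in 567 and 194 knockout nuclei, which at this depth allows shares of nuclei with a UMI of up to 0.529% and 1.55%, and sets no limit on the nuclei that express the gene. Free RNA in the droplets can give such low shares. Oligodendrocyte-like nuclei of the active IKKβ mice, of like depth (medians of 2475.0 and 2820.5 UMIs), showed Ttn in 0.427% and 0.398% of nuclei, Ccr9 in 0.480% and 0.746%, Ddo in 0.213% and 1.29%, Tead1 in 2.29% and 3.78% and Rxrg in 1.81% and 0.995%. The shares in microglia without active IKKβ were of the order of these for Ttn, Ddo, Ccr9 and Tead1. For Rxrg they were above both in P301S replicates 1 and 3 (3.07% and 5.57%), non-transgenic replicates 3 and 4 (1.85% and 2.44%) and knockout replicate 1 (2.29%), and in these mice oligodendrocyte-like nuclei showed Rxrg in 0.181%, 0.745%, 0.266%, 1.32% and 1.07%. The shares in active IKKβ microglia were above those of oligodendrocytes for each gene.

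Nuclei thinned to 1000 UMIs gave the same picture at equal depth. Mean shares in active IKKβ microglia were then 13.4% ± 6.03 for Ttn, 13.3% ± 1.24 for Ddo, 5.51% ± 2.58 for Ccr9, 10.00% ± 1.29 for Tead1 and 18.9% ± 0.817 for Rxrg (SD, n = 2). In P301S microglia they were 0.140% ± 0.145, 0.155% ± 0.155, 0.182% ± 0.158, 0.671% ± 0.373 and 1.86% ± 1.07 in the same order (SD, n = 3). Within a mouse the share grew with depth. From the shallowest to the deepest of 5 bins of active IKKβ replicate 1, nuclei with any of the 5 genes went from 51.1% to 80.6%, and in replicate 2 from 56.3% to 91.6%.

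The UMIs of Ttn were the least evenly spread. If every nucleus had the mean Ttn level of its mouse, 30.1% and 53.3% of nuclei would have held a UMI, but 15.3% and 27.3% did. Nuclei with Ttn held 2.36 and 2.86 Ttn UMIs on average and up to 12. Uneven Ttn was not particular to these nuclei. In excitatory neuron-like nuclei of the 9 mice without active IKKβ, 941 Ttn UMIs fell among 25152 nuclei. On average 1.35% of those nuclei held a UMI, fewer than an even spread would give. In astrocyte-like nuclei 70 UMIs fell among 5618 nuclei, of which 1.09% held a UMI, closer to even. Whether the gene or the cells set this spread was not tested. Rxrg was close to even, with 36.4% and 39.5% seen against 40.4% and 43.1%. For Ddo the observed share was 0.837 and 0.763 of the even share, for Tead1 0.767 and 0.726, and for Ccr9 0.748 and 0.754. All 5 ratios were below 1 in both mice.

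**Figure D2:**
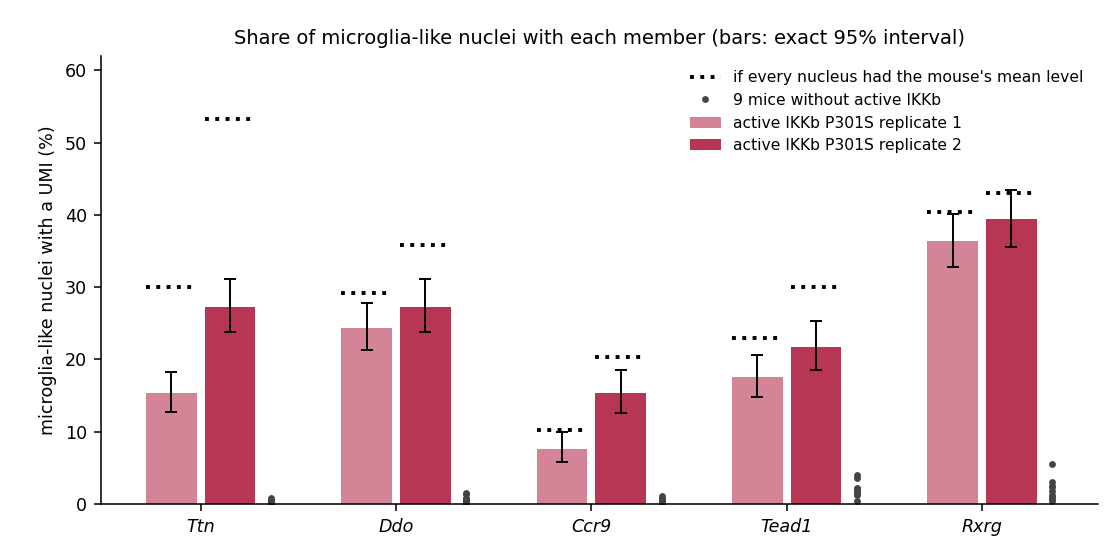
Bars give the percent of microglia-like nuclei with at least 1 UMI of each gene in the 2 active IKKβ P301S mice, with exact 95% intervals, dotted lines the share if all nuclei had the mean level of their mouse, and dots the 9 other mice. Ttn falls far short of its dotted lines (15.3% and 27.3% against 30.1% and 53.3%), while Rxrg (36.4% and 39.5%) comes near to them.

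Most active IKKβ microglia had at least 1 of the 5 genes, and the genes fell on nuclei nearly as if independent. Any of them was seen in 459 of 692 nuclei (66.3%) of replicate 1 and 433 of 593 (73.0%) of replicate 2, against 3.59% to 8.42% in the other 9 mice. Nuclei with 2 or more numbered 187 and 247, where 187 and 232 would be expected from the shares of the genes at matched depth. Over all 10 pairs of genes, 773 co-detections were observed and 723 expected, a ratio of 1.07. Nuclei with none of the genes numbered 233 and 160, where 226 and 139 would be expected.

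Single pairs varied around the expected number. Ttn and Tead1 were together in 32 nuclei of replicate 1 where 20.4 were expected, and in 44 of replicate 2 where 39.3 were expected. Tead1 and Rxrg were together in 47 and 50 nuclei, with 47.9 and 55.6 expected. Ddo and Ccr9 went opposite ways in the mice, at 11 with 14.4 expected and 33 with 27.0 expected. Pairs with more than the expected number in both mice were Ttn with Ccr9, Tead1 and Rxrg, and Ddo with Tead1. These counts are descriptions, as nuclei of a mouse are not replicates.

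**Figure D3:**
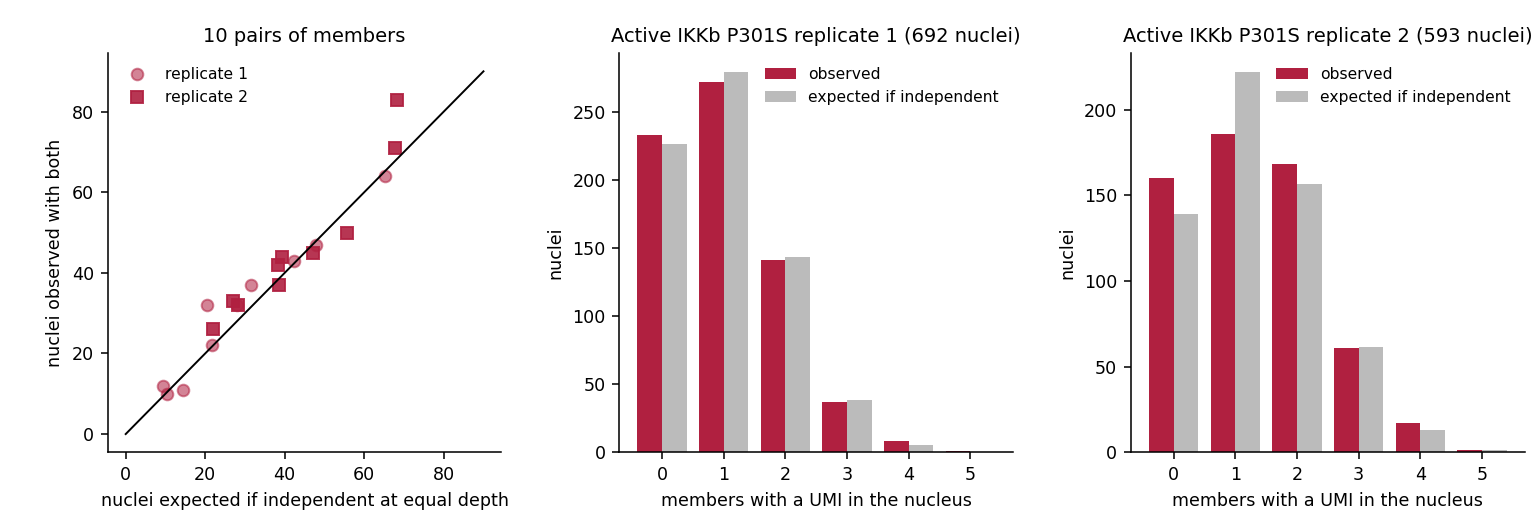
The left panel plots, for 10 pairs of genes in each active IKKβ P301S mouse, nuclei observed with both against the number expected if the genes were independent at equal depth, with a line of equality. The other panels count nuclei by how many of the 5 genes they hold, where 233 of 692 and 160 of 593 nuclei hold none and expected numbers are 226 and 139.

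Nuclei with 2 or more of the genes resembled those with none in most microglial lists at matched depth. NF-κB target genes were at 2584 and 2628 CPM in nuclei with 2 or more and at 2399 and 2212 CPM in nuclei with none. Homeostatic genes were at 10681 and 9108 CPM against 10947 and 8417, and disease-associated genes at 1516 and 2058 against 1487 and 2418. Border macrophage markers stood out in replicate 2, at 217 CPM in nuclei with 2 or more and 1293 CPM in nuclei with none, whereas in replicate 1 they were at 213 and 222 CPM. T cell markers gave 5 UMIs in the former and 115 in the latter nuclei of replicate 2, and 0 and 25 in replicate 1. The microglia-like cluster thus held a few nuclei with other immune markers.

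The summed level of border macrophage markers in microglia-like nuclei was 224 to 398 CPM in active IKKβ mice, 276 to 632 in P301S, 441 to 557 in knockout and 240 to 704 in non-transgenic mice, and 1 of the 8 markers (Lyve1) was at 0 in active IKKβ mice. Active IKKβ nuclei with 3 or more UMIs of these markers, a split chosen after seeing the data, had higher shares of Rxrg, Ttn and Ccr9 in replicate 1 and lower ones in replicate 2, with no test. In replicate 1 Rxrg was seen in 54.2% of 24 such nuclei and 35.8% of the others, Ttn in 20.8% and 15.1%, Ccr9 in 8.33% and 7.63%, Ddo in 16.7% and 24.7% and Tead1 in 12.5% and 17.8%. In replicate 2 the share was lower for each gene in the 38 such nuclei, Rxrg in 26.3% against 40.4%, Ttn in 18.4% against 27.9%, Ccr9 in 10.5% against 15.7%, Ddo in 15.8% against 28.1% and Tead1 in 18.4% against 22.0%. Without these nuclei the mean shares over both mice were 21.5% for Ttn and 38.1% for Rxrg, compared with 21.3% and 37.9% for all nuclei.

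Markers of the types that normally hold these genes were low in microglia of every group, and most overlapped between groups. Astrocyte markers, 11 of 11 found, summed to 608 to 652 CPM in active IKKβ microglia and to 564 to 720 CPM in P301S microglia. Mural markers were at 8.54 to 22.8 CPM against 5.18 to 17.97 CPM, with Kcnj8, Acta2 and Tagln at 0, and fibroblast markers at 19.4 to 31.7 CPM against 25.9 to 70.2 CPM, with Dcn and Slc6a13 at 0. Striatal projection neuron markers were at 563 to 565 CPM against 317 to 358 CPM in P301S and 286 to 615 CPM in non-transgenic mice. The part of these marker levels in the results on the 5 genes was not tested. In the nuclei with fewest markers of neurons, astrocytes and oligodendrocytes (at most 3 UMIs), the log2 fold changes of Ttn, Ddo, Tead1 and Rxrg were 6.35, 5.66, 4.29 and 3.70, and Ccr9 did not pass the count filter.

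Without active IKKβ, Rxrg is the gene for which microglia could be compared between genotypes, as Ttn, Ddo, Ccr9 and Tead1 were too low in these mice to pass the count filter on their own and a missing call says nothing about them. The P301S mice also entered the contrast that chose the genes, so comparisons that use them, that of the lines included, are not independent of the choice. Between P301S and non-transgenic mice Rxrg was not called by edgeR's quasi-likelihood test, with 0.0447% of all genes called, and DESeq2 gave it no adjusted p. It was at 20.6 ± 13.3 CPM in P301S (SD, n = 3) and 7.19 ± 4.65 CPM in non-transgenic mice (SD, n = 4), 1.60 ± 0.47 apart on the log2 scale (edgeR adjusted p = 0.235, unadjusted 0.00251). Without P301S replicate 3 the log2 fold change was 0.70 and the edgeR adjusted p 0.991, but the P301S mice left were all of the floxed line. In the nuclei with fewest markers of other types the log2 fold change was 0.61. With no filter on low counts Rxrg was called. The groups overlapped, as P301S replicate 2, of the floxed line, was below non-transgenic replicates 3 and 4, of the active IKKβ line. In the floxed line P301S mice were at 21.7 and 6.75 CPM against 2.66 and 3.75 CPM in non-transgenic mice. In the active IKKβ line the values were 33.3 CPM against 10.7 and 11.7 CPM. How many of all genes split in the same way within the lines was not counted.

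In knockout mice Rxrg was not called either. Against P301S mice 0% of all genes were called, although 817 had an unadjusted p under 0.05, and DESeq2 called 0 genes. Knockout mice were the younger group, at 8.39 and 9.15 months. With age as a term 306 genes had an unadjusted p under 0.05 by edgeR, and 0 were called. Rxrg was at 7.57 ± 4.76 CPM in knockout mice (SD, n = 2), at -1.41 ± 0.50 against P301S on the log2 scale (edgeR adjusted p = 0.469). Without P301S replicate 3 it was -0.50, and without knockout replicate 1 it was -2.47. Both knockout mice came from the floxed line, and with line as a term the difference was -0.44 (edgeR adjusted p = 0.832). It was -2.15 after thinning to 1000 UMIs and -3.97 in the nuclei with fewest markers of other types, neither called. Against non-transgenic mice Rxrg was at 0.20 ± 0.63 (edgeR adjusted p = 0.990), and again 0% of all genes were called, although 432 had an unadjusted p under 0.05 and DESeq2 likewise called 0. With age as a term that number was 348. Ttn and Ccr9 were at 0 UMIs in both knockout mice, but with at most 4 UMIs of either in any control mouse no fold can be given.

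The active IKKβ line was also compared with the floxed line, in a fit of all mice with genotype as a term, where the difference is set by the non-transgenic and P301S groups, which hold both lines. Rxrg was not called by edgeR or DESeq2, with 0.291% of all genes called by edgeR, at a log2 difference of 1.47 ± 0.39 (edgeR adjusted p = 0.152, unadjusted 0.000968). Its level was 10.7 and 11.7 CPM in non-transgenic mice of the active line and 2.66 and 3.75 CPM in those of the floxed line, and 33.3 CPM in the P301S mouse of the active line and 21.7 and 6.75 CPM in those of the floxed line. These are 1 or 2 mice for each line and genotype, and how many of all genes separate by line in the same way was not counted. Without P301S replicate 1 the edgeR adjusted p was 0.0417 and the log2 difference 2.06. With line in the model the log2 fold change of active IKKβ over P301S mice was 2.74 for Rxrg, 3.48 for Tead1, 4.63 for Ccr9, 5.78 for Ddo and 7.93 for Ttn.

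In P301S replicate 3, 41 of 736 microglia-like nuclei had Rxrg. At matched depth those nuclei had disease-associated genes at 3671 CPM and the 695 without it at 3027 CPM, and NF-κB targets at 2145 and 1760 CPM. Homeostatic genes were at 10315 and 11152 CPM, and striatal projection neuron markers at 406 and 300.5 CPM. In other mice disease-associated genes were lower in nuclei with Rxrg, at 1772 against 1852 CPM in the 13 such nuclei of knockout replicate 1, and at 1308 against 1519 and 1879 against 2142 CPM in the active IKKβ mice. The other 4 genes stayed low in that mouse, at 1.33 CPM for Ttn, 3.33 for Ddo, 2.66 for Ccr9 and 10.7 for Tead1.

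The normal homes of these genes in these samples differed from one another. Although the tissue is named cortex, 9821 of the nuclei were like projection neurons of the striatum, which is not cortex. Levels per cell type are CPM of all UMIs of that type, averaged over the 9 mice without active IKKβ. Endothelial-like and ependymal or choroid plexus-like nuclei were too few in some mice and are not among the 9 types ordered. Types were ordered by mean log2(CPM + 1), and neighbours in the order were compared by exact sign-flip permutation tests over these mice (two-sided, smallest possible p 0.00391). Over 40 neighbouring pairs 12 passed after Benjamini-Hochberg adjustment, 1 of them with microglia as the lower type (Ddo). Pairs described as differing had an adjusted p of 0.0142 and the same direction in 9 of 9 mice, unless stated otherwise. Steps to and from microglia rest in part on the P301S microglia that entered the choice of genes, and their values are given as a description.

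Ttn had no clear home. First on the log2 scale were inhibitory neuron-like nuclei at 5.51 ± 1.02 CPM (SD, n = 9), above the next, excitatory neuron-like nuclei at 3.31 CPM. The mean CPM of mural-like nuclei was higher but uneven, at 7.02 ± 10.6 CPM with mice from 0 to 27.5 CPM, and they stood below astrocytes on the log2 scale. No other step passed, and microglia were at 1.27 ± 1.83 CPM. In active IKKβ mice inhibitory neurons were at 9.35 CPM and microglia at 232 CPM.

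Of the 9 types Ddo was highest in astrocytes, at 185 ± 28.4 CPM in astrocyte-like nuclei. The few ependymal or choroid plexus-like nuclei held 617 CPM in non-transgenic mice (15 nuclei), 547 CPM in knockout mice (52 nuclei) and 123 CPM in P301S mice (99 nuclei), pooled over mice. Fibroblast-like nuclei followed at 125 ± 45.0 CPM, then excitatory neurons at 19.2, and inhibitory neurons at 11.52 CPM, and each of these steps passed the test. Microglia came next at 3.48 CPM, and below them no step passed. Active IKKβ microglia, at 163 CPM, stood near the astrocytes of the same mice, at 156 and 267 CPM.

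Ccr9 was read mainly in vessel-associated cells. Mural-like nuclei were at 156 ± 65.4 CPM and fibroblast-like nuclei at 98.98 ± 29.6 CPM, and these did not differ beyond their spread (higher in 8 of 9 mice, exact p = 0.0508, adjusted 0.135). Both stood far above the next type, oligodendrocyte precursors at 2.03 CPM, and from there down to astrocytes at 1.25 CPM no step passed. Active IKKβ microglia were at 68.4 CPM, below both. The antisense gene Slc6a20a was abundant in the same types, at 1255 CPM in mural and 1267 CPM in fibroblast-like nuclei, so Ccr9 reads there are uncertain. In active IKKβ microglia Slc6a20a had 54 UMIs where Ccr9 had 211. Slc6a20a was thus higher there as well, at 15.3 and 19.4 CPM against 0 to 7.77 CPM (mean 2.96) in microglia of the other 9 mice. Whether its reads entered the Ccr9 count in microglia was not tested.

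Tead1 was found in many types, among them the ependymal or choroid plexus-like nuclei, which pooled over the mice of a genotype held 321 CPM in non-transgenic, 390 CPM in knockout and 759 CPM in P301S mice. Of the 9 types ordered, fibroblasts were at 363 ± 62.3 CPM and astrocytes at 288 ± 20.9 CPM, a step that did not pass (exact p = 0.0195, adjusted 0.0601). Mural cells at 170, oligodendrocyte precursors at 99.7, and inhibitory, excitatory and striatal projection neurons at 51.3, 43.1 and 39.7 CPM came next. The steps from astrocytes to mural cells, to precursors and to inhibitory neurons passed, the steps among neurons did not. Striatal projection neurons were above oligodendrocytes at 10.4 CPM, and microglia came next at 10.96 ± 4.85 CPM. Active IKKβ microglia reached 127 CPM, the level of oligodendrocyte precursors in the same mice (127 CPM).

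Of the 9 types Rxrg was highest in striatal projection neurons, at 86.1 ± 15.9 CPM, above oligodendrocyte precursors at 14.4 CPM. These were in turn above inhibitory neurons at 9.73 CPM (8 of 9 mice, exact p = 0.0117, adjusted 0.0391), and microglia came next on the log2 scale at 11.4 ± 9.86 CPM. Active IKKβ microglia, at 225 CPM, were above the striatal projection neurons of the same mice, at 149 and 71.2 CPM. At 1000 UMIs per nucleus Rxrg was seen in 18.9% of active IKKβ microglia and in 13.4% and 6.36% of striatal projection neurons of these mice.

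**Figure D4:**
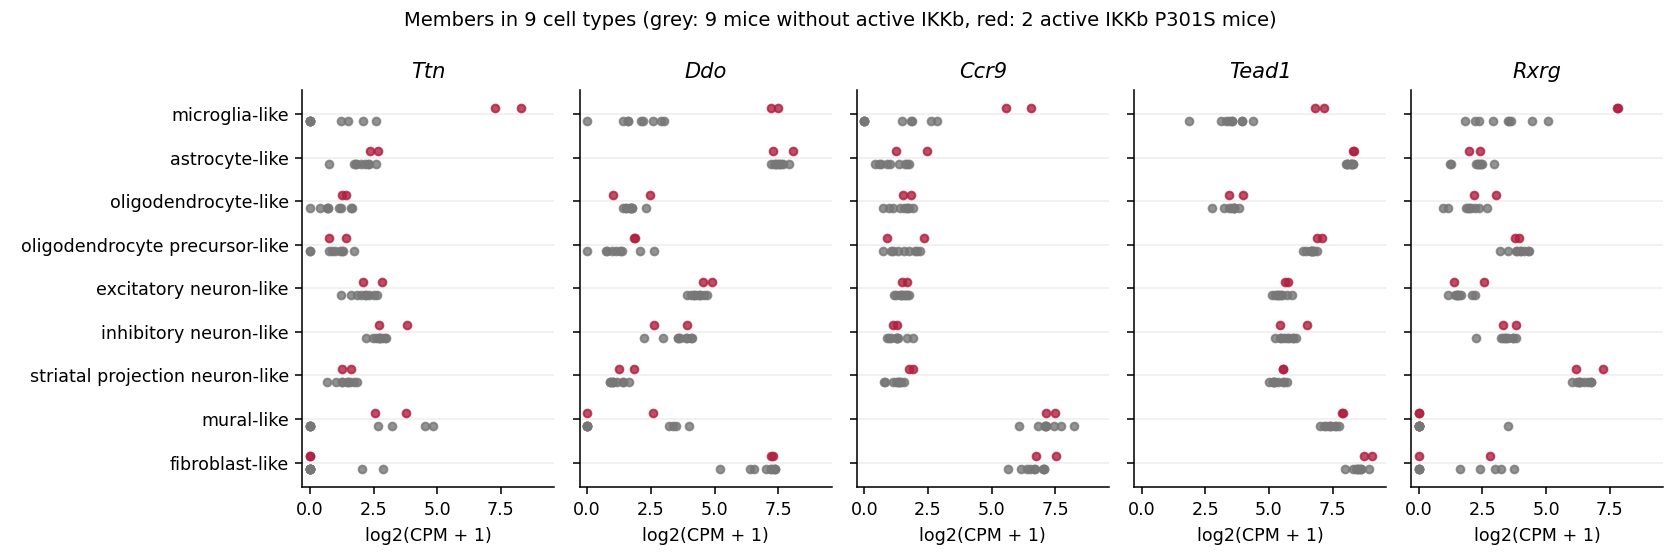
Each panel plots one gene as log2(CPM + 1) in 9 cell types, with 1 point per mouse, grey for the 9 mice without active IKKβ and red for the 2 active IKKβ P301S mice. Red and grey points lie far apart in the microglia-like row of every gene, where Ttn is at 232 CPM on average against 1.27 CPM, and lie close together or overlap in the other rows.

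In the other cell types the 5 genes were not called between active IKKβ P301S and P301S mice. Of 30 tests in 8 types edgeR called 0, as did DESeq2, and 0.00974% of all genes were called over these types. The lowest edgeR adjusted p was 0.622, and 5 tests had an unadjusted p under 0.05. Tead1 was higher in 8 of 8 types, by log2 fold changes of 0.17 to 0.46, with 3 at an unadjusted p under 0.05 and none called, and 2 of the 8 turned below 0 without active IKKβ replicate 2. Ttn was higher in 4 of 4 types in which it could be tested (0.34 to 0.77), Ddo in 5 of 6 (-0.44 to 0.55), and Ccr9 and Rxrg in 3 of 6 each (-0.23 to 0.71 and -0.25 to 1.14). The types come from the same libraries, so these counts of types are not independent observations. How many of all genes were higher in every type was not counted.

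Rxrg in striatal projection neurons depended on the mouse. Its log2 fold change was 0.67 ± 0.26 (edgeR adjusted p = 0.622), -0.05 without active IKKβ replicate 1 and 1.11 without replicate 2, where the edgeR adjusted p was 0.0215. In astrocytes Ddo was at 212 CPM in active IKKβ and 206 CPM in P301S mice (log2 fold change 0.08 ± 0.18). In mural cells Ccr9 was at 159 and 114 CPM (0.55 ± 0.39).

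No other gene of the pathways in which these genes are known was called in microglia by edgeR or DESeq2. The lists were described by counts in active IKKβ P301S against P301S mice, where 1.51% of all genes were called, 8.75% had an unadjusted p under 0.05 and the median log2 fold change of all genes was -0.01. Of retinoid and nuclear receptors and their partners 15 of 30 could be tested, 0 were called, 3 had an unadjusted p under 0.05 and the median was -0.09. The other retinoid X receptors were Rxra, at 0.66 ± 0.31, and Rxrb, at -0.32 ± 0.33, neither called. The largest value was that of Rarb, a retinoic acid receptor, at 1.12 ± 0.31, with 46.7 ± 16.04 CPM in P301S and 103 ± 11.6 CPM in active IKKβ microglia (edgeR adjusted p = 0.0793). Rarb is also one of the 10 striatal projection neuron markers above.

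Of TEAD and Hippo pathway genes 10 of 23 could be tested, 0 were called, 1 had an unadjusted p under 0.05 and the median was -0.01. Vgll4, a TEAD cofactor, was at -0.37 ± 0.15 (edgeR adjusted p = 0.372). Yap1 and Wwtr1, which encode YAP and TAZ, had 13 and 33 UMIs in both active IKKβ mice together and were too low to test, as were Tead2, Tead3 and Tead4 at 9, 5 and 1 UMIs. Of chemokine receptors and Ccl25, 3 of 20 could be tested and 0 were called or had an unadjusted p under 0.05. Ccl25, the ligand of Ccr9, was at 45.3 ± 2.44 CPM in active IKKβ and 51.05 ± 8.55 CPM in P301S microglia (log2 fold change -0.21 ± 0.23).

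Of D-amino acid and aspartate enzymes 6 of 11 could be tested, 0 were called or had an unadjusted p under 0.05, and the median was 0.02. Srr, the serine racemase, was at -0.09 ± 0.23, and Dao, the sister enzyme of Ddo for other D-amino acids, had 1 UMI in active IKKβ microglia. Of sarcomere and muscle genes 8 of 40 could be tested, 0 were called, 1 had an unadjusted p under 0.05 and the median was -0.01. Neb, which encodes another giant sarcomere protein, had 19 UMIs, and Myom1, which binds titin, had 0.

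Several NF-κB target genes rose. Of 30 listed 17 could be tested, and 8 rose while 0.939% of all genes were called higher, with a list median of 1.17. At an unadjusted p under 0.05 by edgeR 11 were higher and 1 was lower, Cd83, at -0.79 ± 0.33 and not called. Nfkbia, which encodes IκBα, was at 1.58 ± 0.43 and not called (edgeR adjusted p = 0.0680). Bcl3, an atypical IκB protein, rose by a log2 fold change of 2.40 ± 0.55, Tnip1, which restrains NF-κB, by 2.08 ± 0.24, Nfkbie, which encodes IκBε, by 1.72 ± 0.40, and the subunit gene Relb by 1.52 ± 0.28 (edgeR adjusted p = 0.0237, 1.6e-05, 0.0245 and 0.00317). Birc3, Icam1, Traf3 and Traf2 rose as well, by 1.36, 1.37, 1.17 and 1.12. This list was written with earlier results of these data known, and its count depends on single mice: 3 rose without active IKKβ replicate 2, 5 without replicate 1 and 4 without P301S replicate 2. The count was 5 with DESeq2, which did not call Bcl3, Nfkbie and Traf2, 4 with line in the model and 2 in the nuclei with fewest markers of other types. Among all genes 0.57% were called lower. Of homeostatic genes 17 of 17 were tested, 6 were lower and 0 higher at an unadjusted p under 0.05, the median was -0.26 and 1 fell, Fcrls, by 2.83 ± 0.64 on the log2 scale (edgeR adjusted p = 0.0227), a call that DESeq2 did not make. Of disease-associated genes 15 of 21 were tested, 5 were lower and 2 higher at an unadjusted p under 0.05, the median was -0.16 and 1 fell, Ank, by 1.45 ± 0.24 (edgeR adjusted p = 0.00116).

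**Figure D5:**
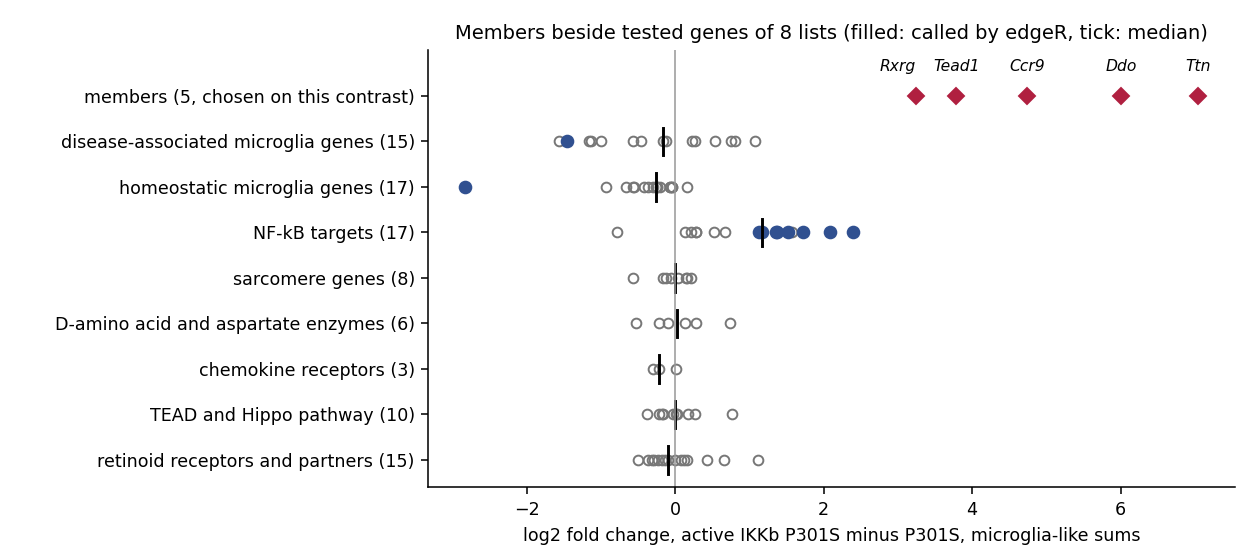
Points give log2 fold changes between active IKKβ P301S and P301S mice in microglia-like sums for the tested genes of 8 lists, filled where called by edgeR, with a tick at the median, and diamonds the 5 genes chosen on this contrast. The 5 diamonds lie between 3.25 and 7.04, and among the lists the NF-κB targets hold 8 called genes above 0.

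Genes whose pattern over the 11 mice was most like that of the 5 were sought by the smallest root mean square difference of centred log2 CPM. As this measure uses the active IKKβ mice it adds no support to the choice of genes. The 5 genes themselves were left out of the rankings, though for Ttn and Ddo each of the other 4 lay nearer than the genes named here. Among other genes Ttn was nearest to Aoah (1.41), Cp, which encodes the copper-carrying ceruloplasmin (1.43), and Ikbke (1.53). Ddo was nearest to Hpn, the serine protease hepsin (1.16), Slamf8, a receptor of myeloid cells (1.17), and Ikbke (1.18). Ccr9 was nearest to Cp (0.807), Tnip1 (0.896) and Hpn (0.911), and Tead1 to Zbtb46, a transcription factor of dendritic cells (0.632), Slamf8 (0.724) and Tnip1 (0.762). Rxrg was nearest to Cd300lf, a myeloid receptor (0.799), Tk1 (0.815) and Slamf8 (0.831). Of these Cp went from 20.4 CPM in P301S to 131 CPM in active IKKβ microglia, and Zbtb46 from 12.4 to 80.9 CPM.

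None of the tested neighbours of the 5 genes given here was called, and 1 came near. Mettl24 begins 1435 bases beyond the end of Ddo on the same strand. It was at 18.5 ± 6.86 CPM in active IKKβ, 4.39 ± 1.505 in P301S, 4.21 in both knockout and 9.88 ± 8.14 CPM in non-transgenic microglia, 2.26 ± 0.59 over P301S on the log2 scale, which was not called (edgeR adjusted p = 0.0556). Whether transcripts running on from Ddo entered the Mettl24 count was not tested. Cdk19 on the other side of Ddo was at -0.26 ± 0.14. Plekha3, 7152 bases from Ttn on the other strand, was at 0.09 ± 0.25, and Lztfl1, antisense within the Ccr9 model, at -0.37 ± 0.22. Mical2 and Arntl on either side of Tead1 and Aldh9a1 on one side of Rxrg were between -0.015 and 0.51 and not called.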

How the data were processed

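Nuclei of frozen mouse cortex were profiled with the 10x Chromium 3′ kit (v3). Per the labels and the study's methods, the authors aligned reads to mm10 with Cell Ranger 3.1.0, counting pre-mRNA, and deposited for each mouse raw UMI counts per gene and barcode, which are whole numbers and were not normalised. Their clustering with Seurat 3.0 was not used here. Samples were grouped by the genotype in the labels and by breeding line from the titles. The 5 genes and all lists were chosen with earlier results of these data known.

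Nuclei were kept if they had 300 to 8000 genes and no more than 5% mitochondrial UMIs (112539 of 114118). Doublets were called from simulated doublets at 0.8% per 1000 barcodes (9474 nuclei, 8.42%) and left out. DoubletFinder was not run. Nuclei were clustered on 2000 variable genes without the 5 genes, 15 principal components, 20 neighbours and Leiden resolution 0.1 (19 clusters, leidenalg 0.10.2), and clusters were named from marker lists. Clusters 3, 12, 13 and 16 stayed unnamed, and endothelial-like and ependymal-like nuclei were too few to test (under 10 in a mouse).

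Counts were summed per mouse and cell type and tested with edgeR 4.0.16 (quasi-likelihood, TMM, filterByExpr, all 11 mice, 1 term per genotype). Calls needed a Benjamini-Hochberg adjusted p under 0.05 and an absolute log2 fold change over 0.1. The test was checked on simulated data. Expected co-detections assumed independence within 5 depth bins per mouse. List levels were weighted to the depth bins of the nuclei with 2 or more genes. Thinned shares are expected values for 1000 UMIs drawn without replacement. Coordinates are from GENCODE M21, to which 31011 of 31053 genes matched. Genes named besides the 5 were list genes called, the 3 next largest rises in 2 contrasts, the 3 nearest in pattern and the nearest tested neighbours. List genes that were not called or not tested, the overlapping gene Slc6a20a and the 4 smaller NF-κB rises are named after their values were seen. The alternatives tried were DESeq2 1.42.0, its size factors, no count filter, each mouse left out, line, age or replicate number as a term, doublets kept, thinning, stricter microglia and clustering with the 5 genes.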

Additional observations from a re-analysis of the deposited data

Results flagged for a closer look

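Dixon's ratio in the 4 non-transgenic mice, looked at for each of the 5 genes in 9 cell types, marked 4 of 45 groups. A group in which only 1 mouse holds a UMI is always marked, so the usual chance rate of about 1 in 20 does not apply. They were the highest mouse for Ddo and for Rxrg in mural-like nuclei (10.2 CPM each), for Ttn in fibroblast-like nuclei (3.17 CPM) and for Ttn in mural-like nuclei (22.0 CPM). All are low counts in types with few nuclei, and they are among the values averaged and compared in the order of cell types.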

How the results depend on the processing

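In the comparisons without active IKKβ, the count of the 5 genes called in microglia (0) rose to 1, Rxrg, with no filter on low counts for P301S against non-transgenic mice and for the lines, and over mice left out it ranged from 0 to 1 for the lines. In other cell types the count (0) was 1 with no filter, Rxrg in striatal projection neurons at 0.68, and 0 to 1 over mice left out. In active IKKβ against P301S mice, Tead1 ranged from -0.053 to 0.45 in fibroblasts and from -0.37 to 0.62 in inhibitory neurons, both lowest without active IKKβ replicate 2, and Rxrg in striatal projection neurons from -0.048 to 1.11, lowest without active IKKβ replicate 1. List genes called between active IKKβ and P301S mice (10) were 6 with DESeq2, 6 with line as a term, 24 with no filter, 3 in nuclei with few markers of other types, and 5 to 14 over mice left out. The log2 fold change of Ddo (6.01) was 5.33 with doublets kept and 7.21 after thinning, and 5.78 to 7.10 over mice left out. The co-detection ratio (1.07) was 1.08 both with doublets kept and in nuclei with few markers of other types. The order of cell types had 12 pairs that passed, 11 with a pseudocount of 5 and 0 in the 4 non-transgenic mice alone, whose smallest possible p is 0.125. With 4 mice the test cannot pass 0.05. The cause of the other changes was not tested.

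Genes called in microglia also changed by over 1.5 times. For P301S against non-transgenic mice (4) the range was 0 to 121 over the settings, for knockout mice (0) 0 to 38 against P301S and 0 to 35 against non-transgenic mice, for the lines (26) 6 to 103, and for active IKKβ against P301S mice (135) 32 to 341, the extremes coming mostly from no filter and from nuclei with few markers of other types. The list genes called were 5 both without active IKKβ P301S replicate 2 and without P301S replicate 2. Mice with the same number in their titles showed low correlations of their deviations from genotype means (-0.08 to 0.14, 1 of 22 over 0.1). In genotypes with 2 mice these deviations mirror each other by construction. In the other genotypes they also hold the difference between lines, so the check can miss a shared batch. The labels do not say what the number marks. Within the active IKKβ line non-transgenic and active IKKβ mice of the same number also share an age (10.85 and 9.8 months). With a replicate block the count of the 5 genes called in microglia stayed at 0 in each comparison without active IKKβ. Between active IKKβ and P301S mice, the contrast that chose the 5 genes, 140 genes were called.

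In counts simulated for knockout against non-transgenic mice (8654 genes), 61% of 2-fold and 98% of 4-fold changes were recovered. These rates are averages over tested genes drawn at random. They may not hold for Rxrg, at 13 and 2 UMIs in the knockout mice, and comparisons with P301S mice were not simulated. Only Rxrg passed the count filter without the active IKKβ mice, so the counts of 0 in microglia say nothing about the other 4 genes. Ttn, Ddo and Ccr9 in microglia without active IKKβ lie at 0 to 8 UMIs per mouse, so differences among those groups were not detectable at this depth. Shares of nuclei with a UMI grow with depth and understate the nuclei that express a gene.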

Other observations

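Endothelial-like nuclei, too few to test, held Ttn mainly in active IKKβ P301S replicate 2. Its 87 nuclei gave 25 UMIs in 8 nuclei, of which 16 came from 1 nucleus, while the 357 endothelial-like nuclei of the 9 mice without active IKKβ gave 6 UMIs and the 2 of active IKKβ replicate 1 gave 0.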
